A study of Mus musculus with 26 samples.

Results

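The 9 genes described here, Cdx1, Cdx2, Hnf4a, Hnf4g, Gata4, Gata6, Klf4, Klf5 and Sox9, encode transcription factors that set and maintain the identity of the intestinal epithelium. They were chosen by name, with earlier results of these data known, from tables of 40481 mouse genes in spheroids, 40481 mouse genes in crypts and 55093 human genes in Caco-2, and all 9 were found in each table. RNA sequencing reads per gene were counted in 26 libraries in which Fgfr1op, the gene of a centrosomal protein, had been deleted or silenced, or had not. Spheroids, which are hollow cultures of intestinal stem and progenitor cells, came from the small intestine of mice labelled Fgfr1op KO (4 libraries) or wild type (WT, 4 libraries). All 8 were taken at day 3 after Z-4-hydroxytamoxifen (250 nM), in medium conditioned by L-WRN cells, which secrete Wnt, R-spondin and Noggin. Crypts were stripped with EDTA from the small intestine of Fgfr1op KO mice (6 libraries) and WT mice (6 libraries) at days 6 and 9 after tamoxifen, with 3 mice for each genotype and day per the series' design text. Caco-2, a human colorectal adenocarcinoma line that takes on enterocyte features in culture, carried a doxycycline-inducible hairpin against Fgfr1op (shFgfr1op, 3 libraries) or a non-targeting hairpin (scramble, 3 libraries) and was taken at day 3 after doxycycline. The sources used here do not name the driver of the tamoxifen-inducible deletion, the strain or the age of the mice, or the number of Caco-2 clones or cultures. A p-value in Caco-2 therefore covers the spread among these 6 samples and no more, and part of that spread may be technical.

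In the intestine, CDX factors bind regulatory DNA along the whole tube and keep its cells from taking on the program of the stomach or other foregut. HNF4A and HNF4G are paralogous nuclear receptors that drive the absorptive program of enterocytes, including lipid handling and the brush border. GATA4 and GATA6 belong to a family of zinc finger factors, and GATA4 marks the proximal small intestine. KLF4 is known for cell cycle exit in differentiated cells and KLF5 for proliferation in crypts, whereas SOX9 is expressed in stem, progenitor and Paneth cells and is required for Paneth cells.

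Mouse promoter sequences are shown for Cdx2 and Hnf4a, because their human counterparts had the smallest p of the factors in Caco-2. They come from the RefSeq table of GRCm38.p6, which held 3 of the 9 genes in the part used here, and each runs from 250 bases before a transcription start to 50 bases after it on the strand of the gene. Capitals mark exact matches, on either strand, to 5 short motifs. These were AGATAA for GATA factors, TTTATG for CDX factors, CAAAGT for HNF4, CCACCC for KLF factors and ACAATG for SOX factors. No matches overlap in the windows shown. The Cdx2 window is at chr5:147307200-147307499, minus strand. The Hnf4a windows are at chr2:163506607-163506906 and chr2:163546905-163547204, plus strand.
Cdx2: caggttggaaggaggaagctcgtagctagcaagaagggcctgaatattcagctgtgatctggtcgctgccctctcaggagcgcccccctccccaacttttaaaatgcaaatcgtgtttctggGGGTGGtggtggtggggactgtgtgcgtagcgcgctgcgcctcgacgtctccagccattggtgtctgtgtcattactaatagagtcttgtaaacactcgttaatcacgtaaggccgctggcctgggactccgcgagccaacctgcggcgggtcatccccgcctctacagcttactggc
Hnf4a, upstream start: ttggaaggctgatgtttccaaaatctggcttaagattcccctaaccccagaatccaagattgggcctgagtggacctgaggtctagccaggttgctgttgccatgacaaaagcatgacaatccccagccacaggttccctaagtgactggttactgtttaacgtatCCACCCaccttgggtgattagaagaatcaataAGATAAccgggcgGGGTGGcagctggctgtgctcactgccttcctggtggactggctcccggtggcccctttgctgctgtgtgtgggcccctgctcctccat
Hnf4a, downstream start: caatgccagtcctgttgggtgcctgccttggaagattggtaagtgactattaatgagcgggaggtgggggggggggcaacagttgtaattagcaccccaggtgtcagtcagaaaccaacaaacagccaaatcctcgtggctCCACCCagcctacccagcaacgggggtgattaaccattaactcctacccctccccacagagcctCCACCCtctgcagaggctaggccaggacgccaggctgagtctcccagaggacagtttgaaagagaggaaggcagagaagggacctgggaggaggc

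The Cdx2 window held 1 KLF match. The upstream Hnf4a window held 2 KLF matches and 1 GATA match, and the downstream one 2 KLF matches. The Hnf4a starts lie 40298 bases apart, and the counts per gene do not separate transcripts from one or the other. Among all 32817 promoter windows of the same length, 31.5% held the KLF motif, 11.2% the GATA motif, 14.4% the HNF4 motif, 11.9% the CDX motif and 12.6% the SOX motif. The matches are a description of these letters and not of bound sites.

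In mm10 the genes lie at chr18:61018862-61036199 (Cdx1), chr5:147300805-147307270 (Cdx2), chr2:163506808-163572910 (Hnf4a), chr3:3508030-3658052 (Hnf4g), chr14:63198922-63271692 (Gata4), chr18:11052064-11085635 (Gata6), chr4:55527143-55532466 (Klf4), chr14:99298691-99315036 (Klf5) and chr11:112782224-112787760 (Sox9). Gata4 and Klf5 share chromosome 14, Cdx1 and Gata6 share chromosome 18, and the other 5 are each on a chromosome of their own.

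Libraries held 44152608 to 67630241 counts in spheroids, 48068740 to 103352863 in crypts and 37281821 to 50965004 in Caco-2. Levels below are in CPM, the usual depth-scaled count of RNA sequencing, with library totals adjusted for composition (TMM), and changes are fitted log2 fold changes of KO over WT, or shFgfr1op over scramble, with their standard errors (SE). A gene passed the test at an adjusted p below 0.05 (edgeR's quasi-likelihood test, with Benjamini-Hochberg adjustment over all genes tested in that comparison). Fgfr1op itself was lower in every KO library than in any WT library, at 15.1 to 19.8 against 21.6 to 24.2 CPM in spheroids and at 11.5 to 25.6 against 25.7 to 40.1 CPM in crypts. Of all genes tested, 8.75% in spheroids and 10.4% in crypts also had groups that did not overlap. The log2 fold change of Fgfr1op was -0.42 ± 0.095 in spheroids and did not pass (adjusted p = 0.117). In crypts it was -0.65 ± 0.19 and passed (adjusted p = 0.0261). In Caco-2 the level of Fgfr1op was 6.42 to 7.25 CPM with the hairpin and 15.5 to 15.9 CPM with scramble. No source used here names the deleted part of the gene, and reads from outside it can remain in KO libraries. Summed epithelial markers (Epcam, Cdh1, Krt8, Krt18, Vil1 and Cdh17) stood between 5917 and 12627 CPM in every mouse library, against at most 3.71 CPM for 6 muscle and 3.67 CPM for 6 endothelial markers. In crypts the summed stromal markers reached 62.2 CPM (KO E) and the summed immune markers 5097 CPM (WT E).

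The crypt columns show genotype but not day, so days 6 and 9 were pooled and the spread within a group holds any difference between them. Libraries are named A to F within each genotype, in the order of their column names, and the letter stands for no known sample or day. On the first principal component of the crypts, which held 55.9% of the variance, KO D, E and F stood at 102, 124 and 107 while the other 9 libraries lay between -63.7 and 5.07. These 3 carry the last column numbers of the KO group, and no label says whether they share a day. In those 3 libraries the summed level of 8 enterocyte markers was 5667, 2241 and 4456 CPM, against 14367 to 29123 CPM in KO A to C and 12666 to 34318 CPM in WT. None of these 8 markers was at 0 in the table. Summed epithelial markers were higher in KO D, E and F, at 12458, 12627 and 11580 CPM. They were at 7850 to 8592 CPM in KO A to C and at 5917 to 8896 CPM in WT. Their part in the values of the factors was not tested. Each factor in crypts is therefore given with and without KO D to F, and so are the counts of calls in the gene lists. In bulk tissue, fewer cells of a type and less RNA per cell cannot be told apart.

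In wild-type tissue the 9 factors were all expressed, in a different order in culture and in crypts. In WT spheroids, levels per kilobase of merged exon (RPKM, computed from CPM) were highest for Hnf4a at 167 ± 24.3 (SD, n = 4) and Cdx2 at 146 ± 15.9, whose ranges overlapped. Cdx1 at 82.0 ± 15.4 and Klf5 at 71.8 ± 6.81 RPKM followed, and also overlapped. Sox9 (36.3 RPKM), Gata4 (27.6 RPKM) and Klf4 (25.3 RPKM) each overlapped its neighbour, and Gata6 (13.06 RPKM) and Hnf4g (12.01 RPKM) were lowest and overlapped. In WT crypts Hnf4g led at 182 ± 38.2 RPKM (SD, n = 6), above Hnf4a at 106 ± 17.9 RPKM in 6 of 6 libraries although their ranges overlapped. The other 7 factors lay between 4.95 RPKM (Gata6) and 18.2 RPKM (Cdx1), where neighbours overlapped among Cdx1, Klf4, Cdx2 and Klf5, and Klf5 lay above Sox9 in 6 of 6 libraries without overlap. Set side by side without a test, because the tables were scaled separately and the preparations differ, mean Hnf4g CPM was 15.2 times as high in WT crypts as in WT spheroids. The reverse held for the other 8, from 1.57 times for Hnf4a to 11.0 times for Cdx2.

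**Figure D1:**
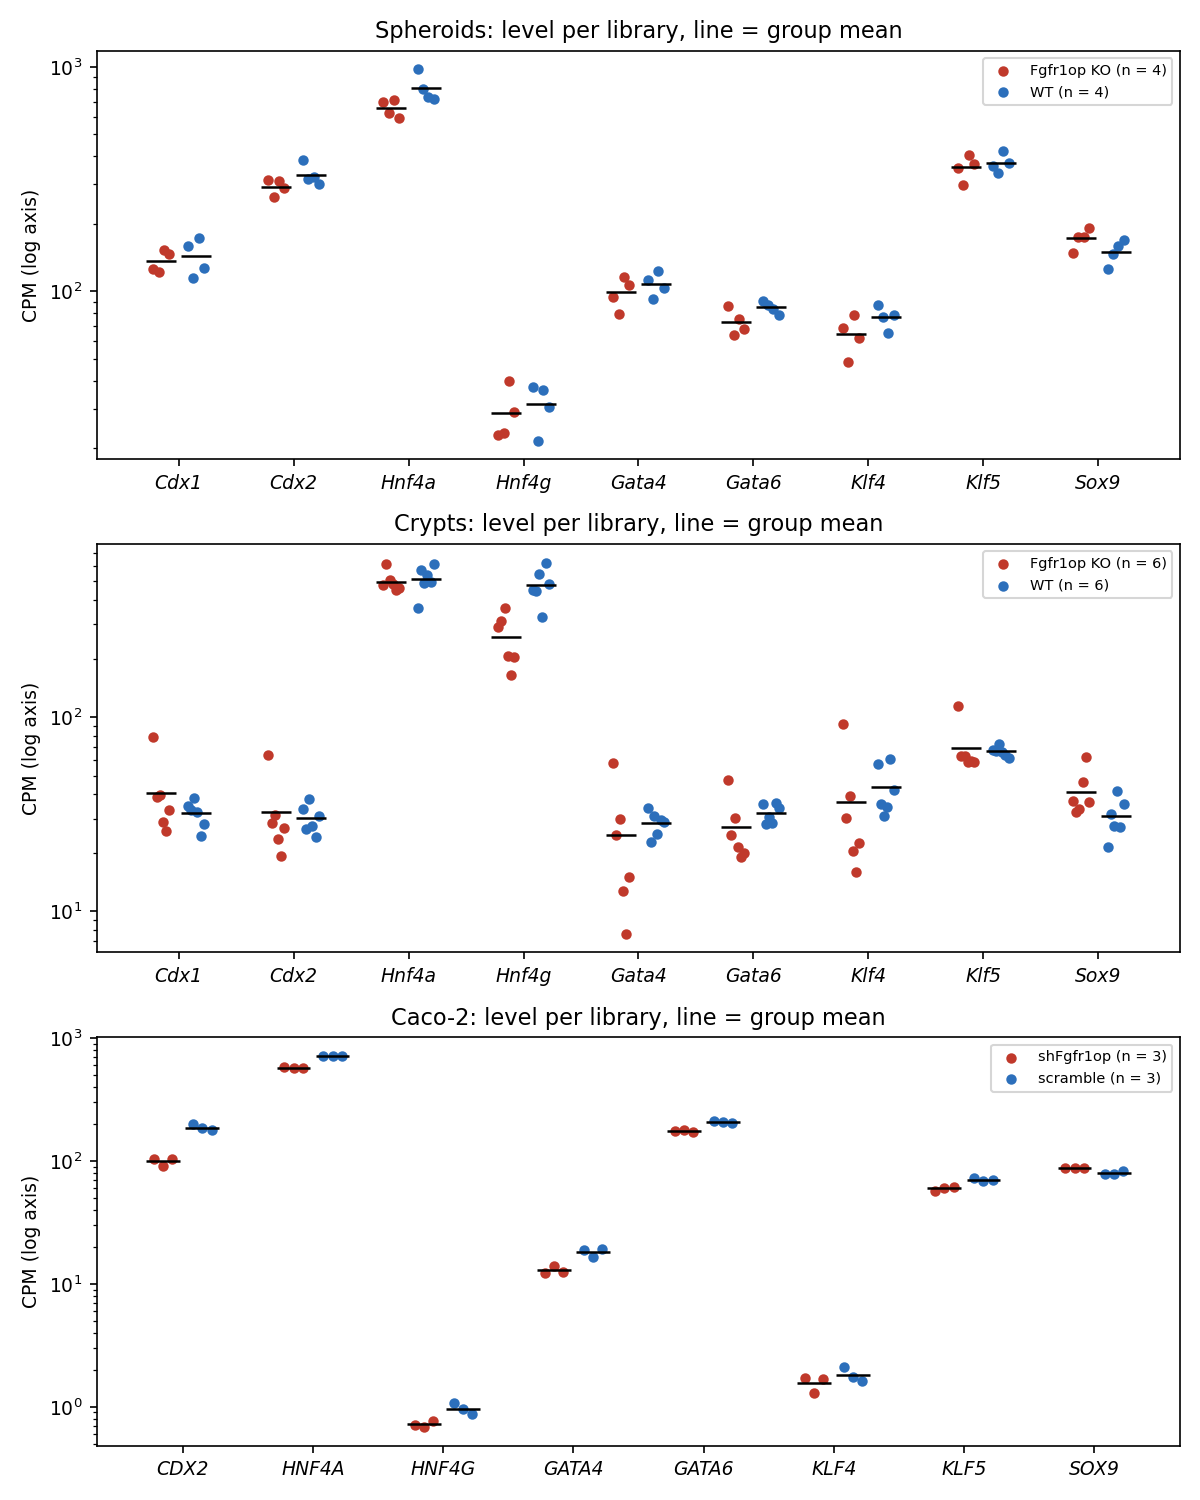
Level of each factor in every library, in CPM on a log axis, for spheroids, crypts and Caco-2; red points are Fgfr1op KO or shFgfr1op libraries, blue points WT or scramble, and black lines group means. Hnf4g has group means of 28.8 and 31.6 CPM in spheroids and of 258 (KO) and 479 (WT) CPM in crypts, and CDX1 is left out of the Caco-2 panel because it was nearly absent.

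In spheroids 0 of the 9 factors passed the test in edgeR, and 0 passed in DESeq2 or limma voom. Of all 15915 genes tested, 37 passed (0.232%), 0.189% higher and 0.0440% lower in KO, so few calls could fall on any list. Unadjusted p was below 0.05 for 2 of 9 factors, Hnf4a and Gata6, against 14.6% of all genes. The KO mean was lower than the WT mean for 8 of 9, with a median log2 fold change of -0.14 against 0.00 for all genes tested, of which 50.4% were lower.

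Hnf4a was the only factor whose spheroid groups did not overlap, which 8.75% of all genes tested also showed. Its level was 700, 624.7, 713 and 592 CPM in KO replicates 1 to 4 and 975, 798, 733 and 720 CPM in WT replicates 1 to 4. The highest KO library lay just under the lowest WT library. It gave a fold change of -0.30 ± 0.11 (SE) on the log2 scale, an unadjusted p of 0.0156 and an adjusted p of 0.237. Its paralog Hnf4g was low and varied as much within a genotype as between them, at 23.0, 23.4, 39.8 and 29.1 CPM in KO and 37.7, 21.7, 36.4 and 30.6 CPM in WT.

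Of the CDX factors, Cdx2 averaged 293 ± 23.0 CPM (SD, n = 4) in KO and 331 ± 35.9 CPM in WT spheroids, a log2 fold change of -0.18 ± 0.089 (adjusted p = 0.380). Cdx1 averaged 137 and 143 CPM with overlapping groups (adjusted p = 0.822). Gata6 was at 86.2, 64.1, 75.2 and 68.1 CPM in KO and 91.0, 86.9, 83.3 and 78.8 CPM in WT, so that 3 of 4 KO libraries lay below every WT library. Its log2 fold change was -0.22 ± 0.092, with an unadjusted p of 0.0383 and an adjusted p of 0.315. Gata4 averaged 99.2 and 108 CPM (adjusted p = 0.663).

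The KLF factors overlapped between genotypes as well. Klf4 averaged 64.5 ± 12.4 CPM in KO and 77.0 ± 9.14 CPM in WT spheroids (log2 fold change -0.26 ± 0.14, adjusted p = 0.408), and Klf5 357 and 374 CPM (adjusted p = 0.781). Sox9 was the factor with a higher KO mean, at 172 ± 17.4 against 150 ± 19.2 CPM (log2 fold change 0.19 ± 0.10, adjusted p = 0.419). Its libraries ran from 149 to 191 CPM in KO and from 125 to 170 CPM in WT.

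**Figure D2:**
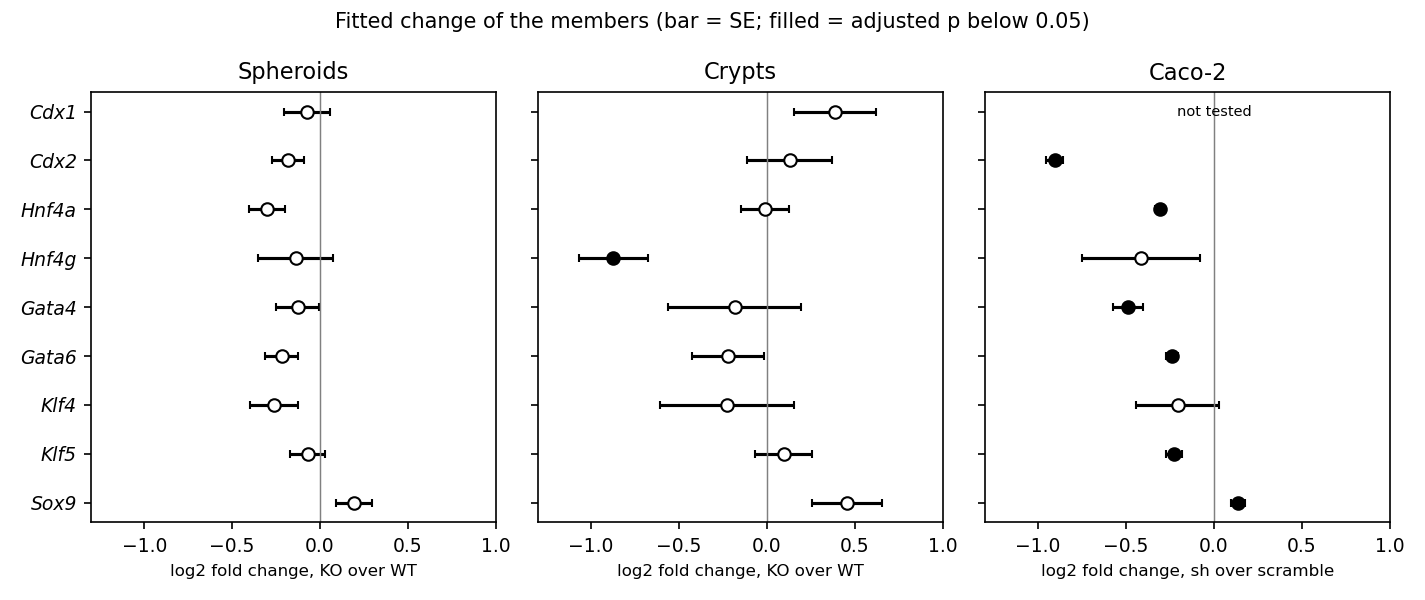
Fitted log2 fold change of each factor (x axis) in spheroids, crypts and Caco-2, KO over WT or shFgfr1op over scramble; bars are 1 standard error and filled points passed the test. No point is filled in spheroids, 1 (Hnf4g) is filled in crypts and 6 are filled in Caco-2, where CDX1 was too low to be tested.

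In crypts Hnf4g fell and the other 8 factors did not pass the test. Of 16413 genes tested in crypts, 4014 passed (24.5%), 14.0% higher and 10.5% lower in KO, so 1 of 9 lies below the share among all genes. Unadjusted p was below 0.05 for 2 of 9, Hnf4g and Sox9, against 38.1% of all genes, and the groups did not overlap for 0 of 9, against 10.4% of all genes. Limma voom with quality weights, which weights down libraries that vary more, called 5 of 9 factors and 7179 of the 16413 genes. A large share of all genes therefore passed in it too, and 5 of 9 is not set apart from that share. In it Hnf4g, Gata4 (-0.87, adjusted p = 0.0183), Gata6 (-0.46, adjusted p = 0.0151) and Klf4 (-0.74, adjusted p = 0.0219) fell and Sox9 rose (0.49, adjusted p = 0.0386). The median log2 fold change of the 9 was -0.01 in edgeR, against 0.05 for all genes.

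Hnf4g ran from 164 to 364 CPM in KO crypts, with a median of 250 CPM, and from 328 to 624.8 CPM in WT crypts, with a median of 465.9 CPM. The groups overlapped through KO C at 364 CPM and WT D at 328 CPM, and the lowest 3 libraries were KO D, E and F at 207, 164 and 204 CPM. The mean was 258 ± 77.3 CPM (SD, n = 6) in KO and 479 ± 100 CPM in WT, a log2 fold change of -0.87 ± 0.20 and a fall of 45.4% (adjusted p = 0.00804). Without KO D to F the log2 fold change was -0.56 with an adjusted p of 0.102, in a fit with 3 KO libraries in place of 6, and the call was lost. With any single library left out Hnf4g still passed. KO A, B and C, at 293, 314 and 364 CPM, were each below at least 5 of 6 WT libraries. In the fit without KO D to F, 0 of the 9 factors passed and 2 had an unadjusted p below 0.05. It called 924 of all genes, against 4014 in the fit of all libraries.

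Hnf4a, the paralog, did not pass. It averaged 499 ± 60.7 CPM in KO and 513 ± 86.4 CPM in WT crypts (log2 fold change -0.01 ± 0.13, adjusted p = 0.957), and KO D, E and F at 483, 449 and 462 CPM were within the WT range of 366 to 614 CPM. Without those 3 libraries the log2 fold change was 0.067 (adjusted p = 0.861). The log2 ratio of Hnf4a to Hnf4g within a library, which does not depend on library scaling and holds a constant for gene length, averaged 1.00 in KO and 0.11 in WT crypts, a difference of 0.89. An exact two-sided permutation test over the 12 libraries gave p = 0.00649, and p = 0.0519 after adjustment over the 12 ratios compared (4 paralog pairs in 3 systems), so this ratio missed the threshold. The 12 include the 4 ratios in Caco-2, which could not pass whatever their values, and the adjusted p depends on counting them. The difference in the log2 ratio of Hnf4a to Hnf4g was 0.61 without KO D to F (p = 0.238 after adjustment, exact permutation). With only 3 KO libraries left, the test has few possible splits and could hardly pass. This p therefore does not show that the difference went away.

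The CDX factors had higher means in KO crypts but overlapped with WT. Cdx1 ran from 25.8 to 78.8 CPM in KO, with a median of 35.9 CPM, and from 24.4 to 38.3 CPM in WT, with a median of 32.8 CPM (log2 fold change 0.39 ± 0.23, adjusted p = 0.240). Cdx2 ran from 19.3 to 63.6 CPM in KO, with a median of 27.8 CPM, and from 24.1 to 37.8 CPM in WT, with a median of 29.2 CPM (log2 fold change 0.13 ± 0.24, adjusted p = 0.727). KO A was the highest library for both. Without KO A the log2 fold change was 0.086 for Cdx1 (adjusted p = 0.661) and -0.18 for Cdx2 (adjusted p = 0.344), and without KO D to F it was 0.73 for Cdx1 (adjusted p = 0.0670) and 0.47 for Cdx2 (adjusted p = 0.246). The log2 ratio of Cdx1 to Cdx2 was more even, from 0.29 to 0.43 in KO and from -0.12 to 0.31 in WT crypts. The difference of 0.26 had p = 0.00866 by the exact permutation test and p = 0.0519 after adjustment, and p = 0.0260 after adjustment when WT B was left out.

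Gata4, Gata6 and Klf4 varied widely among the KO crypts in a similar order. Gata4 was at 58.2, 24.8 and 30.0 CPM in KO A, B and C and at 12.7, 7.66 and 15.05 CPM in KO D, E and F, against 22.8 to 34.2 CPM in WT. Klf4, in the same order, was at 91.7, 30.2, 39.2, 20.3, 15.98 and 22.5 CPM, against 30.9 to 60.5 CPM in WT. Gata6 was at 47.6, 24.8, 30.2, 21.3, 18.96 and 19.99 CPM, against 28.1 to 36.1 CPM in WT. For each of the 3 genes KO A lay above the WT range and KO D, E and F below it.

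None of the 3 passed the test: the log2 fold changes were -0.18 ± 0.38 for Gata4 (adjusted p = 0.755), -0.22 ± 0.21 for Gata6 (adjusted p = 0.453) and -0.23 ± 0.38 for Klf4 (adjusted p = 0.699). KO A and KO D to F decided these values. Without KO A, Gata6 was at -0.46 (adjusted p = 0.0232) and Klf4 at -0.75 (adjusted p = 0.0358), which passed, and Gata4 was at -0.65. Without KO D to F the log2 fold changes were 0.42 for Gata4, 0.10 for Gata6 and 0.32 for Klf4. The summed enterocyte markers given above moved with the same libraries, and their part in these values was not tested.

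Klf5 varied little in crypts outside KO A. It was at 114 CPM in KO A and between 58.5 and 63.4 CPM in the other 5 KO libraries, against 61.2 to 72.5 CPM in WT (log2 fold change 0.09 ± 0.16, adjusted p = 0.704). The change was -0.10 without KO A and 0.29 without KO D to F (adjusted p = 0.394). Sox9 ran from 32.5 to 62.4 CPM in KO, with a median of 36.8 CPM, and from 21.5 to 41.6 CPM in WT, with a median of 29.6 CPM. Its log2 fold change was 0.45 ± 0.20 (adjusted p = 0.107), and 0.16 without KO D to F (adjusted p = 0.670). KO E, the highest library for Sox9, was the lowest for Gata4, Gata6 and Klf4. Over the 9 factors, KO A was the highest KO library for 6 and KO E the lowest for 7.

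**Figure D3:**
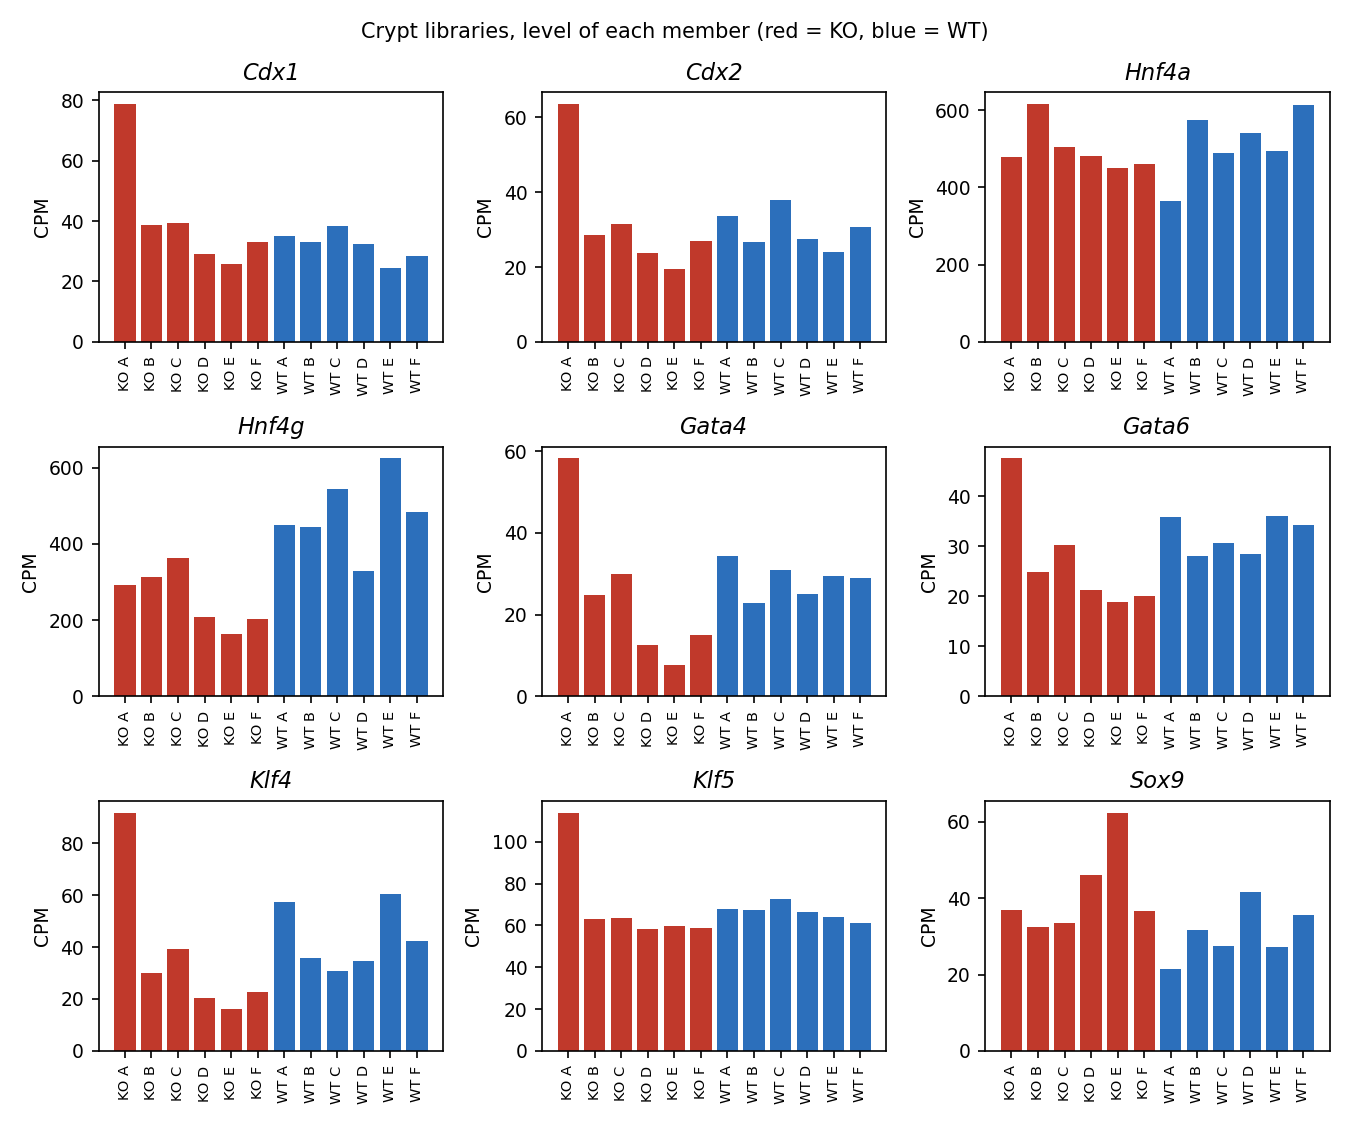
Level of each factor (CPM, linear axis from 0) in the 12 crypt libraries, KO in red and WT in blue; the letter is only a name. KO A is highest for Cdx1, Cdx2, Gata4, Gata6, Klf4 and Klf5, and KO D, E and F are the lowest 3 libraries of all for Hnf4g, Gata4, Gata6 and Klf4.

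The KO effects in crypts and spheroids were compared in a joint fit of the 20 mouse libraries, where 2.86% of 18485 genes differed. Of the 9 factors 0 passed in edgeR and 0 in DESeq2, 2 passed in limma voom (Hnf4g and Gata4), and Hnf4g had an unadjusted p below 0.05. Its crypt effect minus its spheroid effect was -0.79 ± 0.32 on the log2 scale (adjusted p = 0.164). For the other 8 the adjusted p was at least 0.496.

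**Figure D4:**
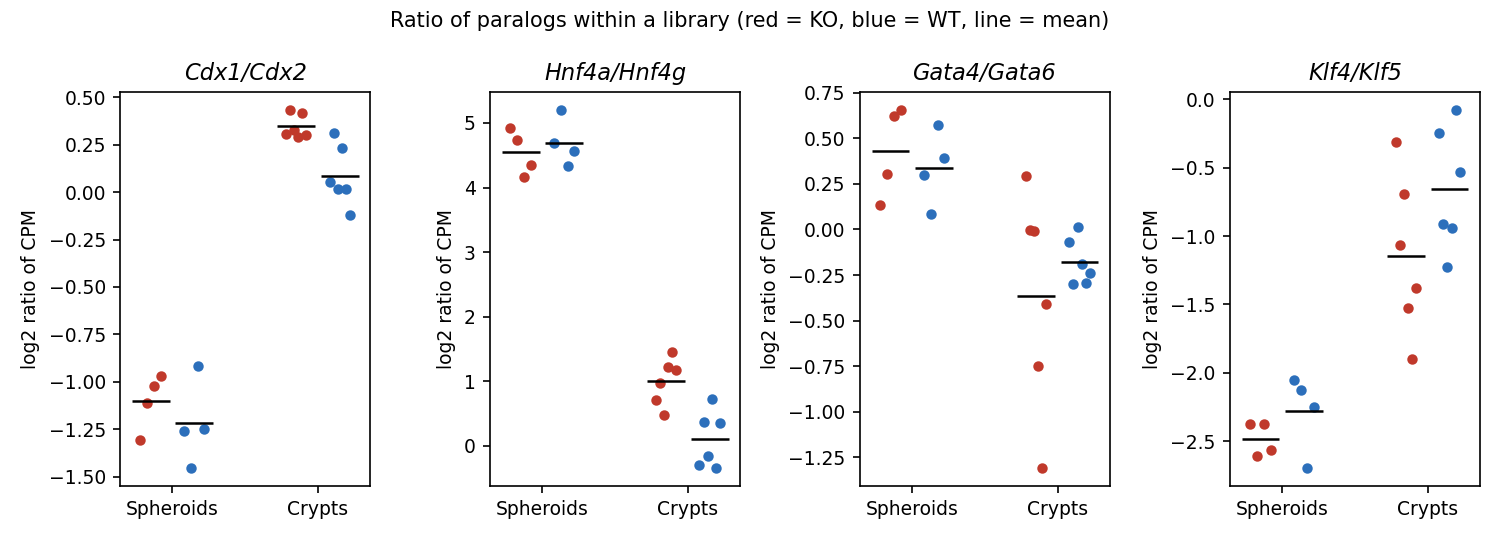
Log2 ratio of the CPM of a pair of related factors within a library, for spheroids and crypts; red points are KO, blue points WT and lines means, and each panel has its own y axis. In crypts the mean log2 ratio of Hnf4a to Hnf4g is 1.00 in KO and 0.11 in WT with overlapping points, and that of Cdx1 to Cdx2 runs from 0.29 to 0.43 in KO.

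In Caco-2 the silencing of Fgfr1op went with lower levels of most of the factors. Of 8 tested, 5 fell (CDX2, HNF4A, GATA4, GATA6 and KLF5), 1 rose (SOX9) and 2 did not pass (HNF4G and KLF4). Among all 18905 genes tested 31.9% passed, 15.7% higher and 16.2% lower, and unadjusted p was below 0.05 for 6 of 8 against 39.8% of all genes. The groups did not overlap for 7 of 8, which 42.4% of all genes also showed, and the median log2 fold change was -0.27 against -0.01 for all genes.

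CDX2 had the largest change of the 8. It was at 103, 91.3 and 104 CPM with the hairpin and at 199, 184 and 177 CPM with scramble, so every shFgfr1op library was far below every scramble library. It fell by 46.6%, with a log2 fold change of -0.91 ± 0.047 (adjusted p = 2.88e-13). CDX1 was nearly silent, with 0, 0 and 1 counts in the shFgfr1op libraries and 4, 4 and 2 in scramble, and was not tested.

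HNF4A varied little between libraries of a group. It was at 582, 575 and 572 CPM with the hairpin and 717, 710 and 714 CPM with scramble, a fall of 19.1% (log2 fold change -0.31 ± 0.028, adjusted p = 2.81e-12). HNF4G was at 0.71, 0.68 and 0.77 CPM and at 1.07, 0.96 and 0.87 CPM, a level near 1 CPM in all 6 libraries (log2 fold change -0.41 ± 0.33, adjusted p = 0.384).

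Both GATA factors fell. GATA4 was at 12.2, 13.95 and 12.6 CPM against 18.8, 16.6 and 19.1 CPM in scramble (log2 fold change -0.49 ± 0.083, adjusted p = 5.63e-06). GATA6 was at 174, 179 and 172 CPM against 210, 208 and 204 CPM (log2 fold change -0.24 ± 0.033, adjusted p = 9.59e-08).

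KLF5 fell from 70.3 ± 1.92 CPM (SD, n = 3) to 59.9 ± 2.47 CPM (log2 fold change -0.23 ± 0.045, adjusted p = 7.33e-05), and KLF4 was low, at 1.29 to 1.73 CPM against 1.63 to 2.11 CPM (adjusted p = 0.560). SOX9 rose, from 77.8, 78.6 and 83.7 CPM to 87.5, 87.7 and 88.2 CPM (log2 fold change 0.14 ± 0.041, adjusted p = 0.00748). The rise of 9.98% did not pass without scramble 1 (adjusted p = 0.0540) or scramble 2 (adjusted p = 0.0576). None of the 4 paralog ratios in Caco-2 could pass, since 3 against 3 libraries allow no exact p below 0.1.

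The other 24 transcription factors of the intestinal list, the network in which the 9 act, showed 0 calls in spheroids (9 at an unadjusted p below 0.05), 3 rises and 4 falls in crypts, and 3 rises and 14 falls in Caco-2. Of all genes tested, 0.232% were called in spheroids. In crypts 14.0% rose and 10.5% fell, and in Caco-2 15.7% rose and 16.2% fell. Unadjusted p was below 0.05 for 14.6% of all genes in spheroids and 38.1% in crypts. The counts of every list below, in fits of all libraries, have these same shares as background. Those of the 24 in crypts lie near them. In crypts the smallest p of the 24 belonged to Foxa1, a pioneer factor of endoderm, at 2.21 ± 0.578 CPM in WT and 6.49 ± 2.49 CPM in KO (log2 fold change 1.59 ± 0.29, adjusted p = 0.00315). Nr5a2, a nuclear receptor of crypts, fell by 1.00 on the log2 scale (adjusted p = 0.00903), and Foxa3 rose by 1.15 (adjusted p = 0.0122). Ppara (-1.56), Vdr (-1.58) and Isx (-0.45) fell as well. With KO D to F left out, Foxa1 (1.15, adjusted p = 0.0395), Ppara (-0.93, adjusted p = 0.0237) and Vdr (-0.86, adjusted p = 0.0145) still passed. In Caco-2, NR5A2 fell as well (log2 fold change -0.68 ± 0.061), with ELF3, an epithelial ETS factor (-0.72 ± 0.049), and PRDM1, a repressor active in the immature intestine (-1.24 ± 0.10). ASCL2 (0.62) and PPARA (0.21) were among the 3 that rose there.

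Among other KLF genes, 3 of 11 tested rose in crypts, namely Klf6 (log2 fold change 1.16), Klf7 (1.52) and Klf11 (1.05), and none fell. Klf6 was at 316 ± 120 CPM in KO and 145 ± 43.0 CPM in WT crypts. None of these 3 passed with KO D to F left out, and Klf10 then fell (-0.94, adjusted p = 0.0305). In Caco-2, KLF6 moved the other way, from 75.7 ± 3.15 CPM to 51.2 ± 1.62 CPM, in a list with 1 rise (KLF12) and 4 falls (also KLF13, KLF10 and KLF2) among 11. Of the SOX genes tested, 1 of 5 rose (Sox13) and 1 fell (Sox6) in crypts, neither of which passed without KO D to F. In Caco-2, 3 of 10 rose (SOX2, SOX8 and SOX18) and 2 fell (SOX13 and SOX4), and SOX2, a factor of the foregut and stomach, rose from 7.86 ± 0.288 CPM to 15.8 ± 0.255 CPM (log2 fold change 1.02 ± 0.090, adjusted p = 9.56e-13). Of the 3 stomach markers tested in Caco-2, SOX2 was the one that rose, TFF1 fell (-2.77 ± 0.33) and MUC6 did not pass, with a median of -0.33.

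Of genes known as CDX targets, 8 of 11 tested fell in Caco-2 and 1 rose (ABCB1), with a median log2 fold change of -0.90. CDH17, an intestinal cadherin, went from 200 ± 4.15 CPM to 110 ± 2.64 CPM, and HEPH, a ferroxidase of iron export, from 46.1 ± 2.75 CPM to 21.01 ± 0.525 CPM. LCT, the lactase gene, went from 6.92 ± 0.384 CPM to 1.01 ± 0.288 CPM (log2 fold change -2.78 ± 0.18, adjusted p = 4.49e-17). In crypts 2 of 13 fell, Sis (sucrase-isomaltase, log2 fold change -1.09) and Isx (-0.45), and Cldn2, a pore-forming claudin of crypts, rose (1.23). Leaving out KO D to F, 0 of 13 passed in crypts (6 of them at an unadjusted p below 0.05), and Sis was at -0.78 (adjusted p = 0.0892). In spheroids 0 of 14 passed (5 of them at an unadjusted p below 0.05), with a median of -0.18.

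Genes of lipid handling known as HNF4 targets fell in part in crypts and for the most part in Caco-2. In crypts 4 of 14 fell and none rose, with a median log2 fold change of -0.70. The fatty acid oxidation genes Hadha (-0.73), Acaa2 (-1.34) and Cpt1a (-0.53) were among the 4. When KO D to F were left out, Acaa2 (-0.89, adjusted p = 0.0353) and Cpt1a (-0.66, adjusted p = 0.0445) still passed. In Caco-2, 10 of 12 fell and 1 rose, with a median of -0.58. CPT1A, lower in KO crypts, was the gene that rose, from 42.3 ± 1.85 CPM to 89.1 ± 0.541 CPM.

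**Figure D5:**
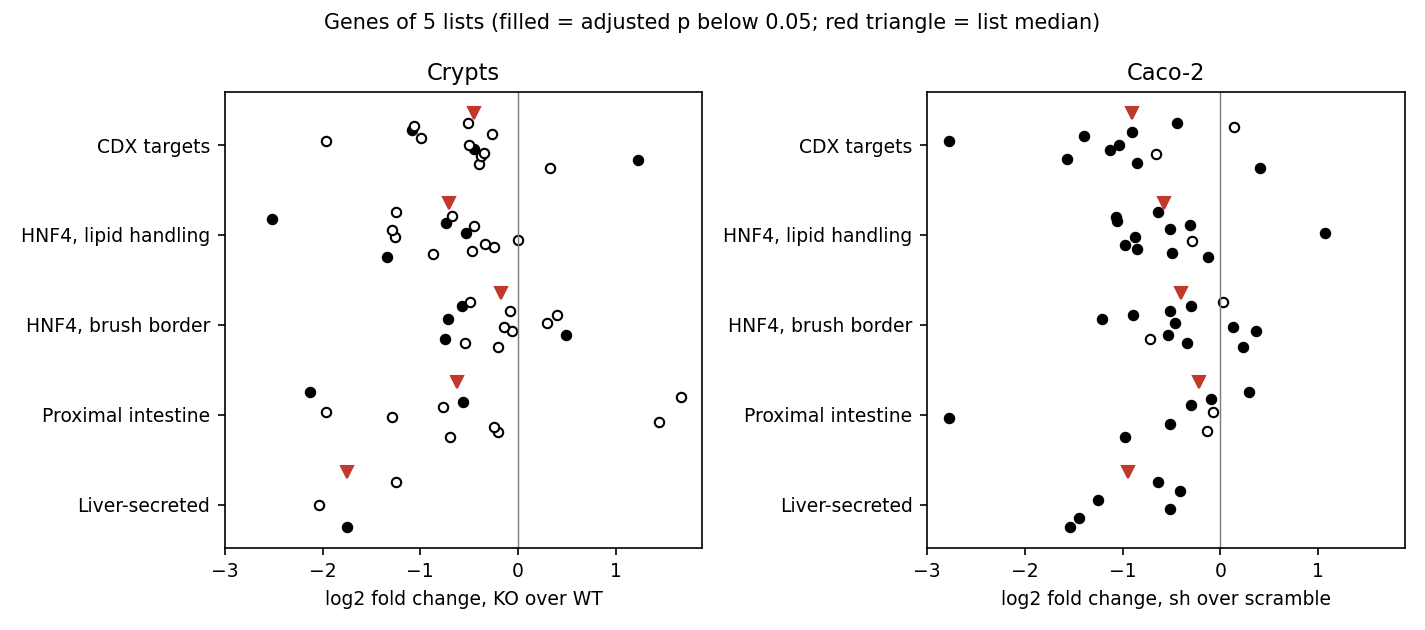
Fitted log2 fold change of each gene in 5 lists, in crypts (left) and Caco-2 (right); filled points passed the test and red triangles are list medians. The medians of CDX targets, HNF4 lipid genes, brush border genes, proximal genes and liver-secreted proteins lie below 0 in both panels. In that order they are -0.90, -0.58, -0.40, -0.21 and -0.94 in Caco-2. In crypts they are -0.45, -0.70, -0.17, -0.63 and -1.75, the last from 3 genes tested, and most points are open. The lists share genes, so their medians are not independent. Lct is both a CDX target and a proximal gene. Fabp1 and Apoa4 are both HNF4 lipid and proximal genes, and Ttr is both an HNF4 lipid and a liver-secreted gene.

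Brush border genes changed in both directions. In crypts Ush1c (-0.57), Myo1a (-0.71) and Cdhr2 (-0.75) fell and Cdhr5 rose (0.50) among 12, and 0 passed without KO D to F (3 of them at an unadjusted p below 0.05). In Caco-2, 7 of 12 fell and 3 rose (EPS8L2, ALPI and EPS8). CDHR5 fell there (-0.53 ± 0.056), as did MYO1A, a brush border motor, from 11.7 ± 0.988 CPM to 5.03 ± 0.471 CPM.

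Genes of the proximal small intestine, the region that GATA4 marks, showed 2 falls among 10 in crypts, both transporters: Slc11a2, the iron importer (-0.56 ± 0.13, adjusted p = 0.00724), and Slc46a1, the folate transporter (-2.13 ± 0.70, adjusted p = 0.0446). Neither passed without KO D to F, where Slc40a1, the iron exporter, fell instead (-3.31, adjusted p = 0.0290), against 1.67 with all libraries (adjusted p = 0.289). Of 7 genes of the distal small intestine 1 rose in crypts and none fell, with a median log2 fold change of -0.41 (0.38 without KO D to F). That was Slc10a2, the ileal bile acid transporter, from 3.58 ± 2.23 CPM in WT to 56.4 ± 46.2 CPM in KO (log2 fold change 4.02 ± 0.74, adjusted p = 0.00425). It was at 2.08 with KO D to F left out (adjusted p = 0.0333). Cubn (-1.64 ± 0.76), Slc51b (-0.88 ± 0.50), Slc51a (-0.73 ± 0.32) and Amn (-0.41 ± 0.56) had negative values in the fit of all libraries and did not pass. In Caco-2, 5 of 8 proximal genes fell and 1 rose (SLC46A1), and 3 of 4 distal genes fell, led by CUBN, the intrinsic factor receptor (-1.91 ± 0.072).

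A list of 9 genes linked to KLF4 and KLF5 held cell cycle genes and Alpi, which is also among the brush border genes. Of these, Cdkn1a, which encodes the cell cycle inhibitor p21, rose in crypts from 130 ± 36.7 CPM to 226 ± 34.5 CPM (log2 fold change 0.82 ± 0.18, adjusted p = 0.00732). Cdkn1a still passed without KO D to F (0.87, adjusted p = 0.0356). The other 8 did not pass. In Caco-2, 5 of 9 rose, ALPI among them, and 1 fell. CCND1 rose (0.43 ± 0.033), MYC fell (-0.45 ± 0.051), and CDKN1A did not pass (-0.17 ± 0.13, adjusted p = 0.343).

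Of 8 genes of Paneth cells, a cell type that needs Sox9, 0 passed in crypts (3 of them at an unadjusted p below 0.05), with a median log2 fold change of -0.91 and a summed level of 15254 to 51659 CPM in KO and 40711 to 81036 CPM in WT. Lyz1, lysozyme, averaged 5594 CPM in KO and 11190 CPM in WT crypts (adjusted p = 0.0747). The lowest sums were again those of KO D, E and F at 15254, 20794 and 21110 CPM, and without them 0 of 8 passed, with a median of -0.25. In Caco-2, 1 of 3 tested fell, LYZ (-0.57 ± 0.071).

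Markers of other fates were read beside the factors. All 6 genes of secreted liver proteins, a program that HNF4A drives in liver, fell in Caco-2 (median -0.94), with SERPINA1 at 915 ± 15.1 CPM in scramble and 384 ± 28.8 CPM with the hairpin. Of 5 stem cell markers tested in Caco-2, 4 rose (LGR5, AXIN2, ASCL2 and SMOC2) and 1 fell (PROM1), and LGR5 went from 14.5 ± 1.06 CPM to 40.6 ± 1.37 CPM. In crypts 0 of 6 stem cell markers passed (1 of them at an unadjusted p below 0.05), as without KO D to F (3 of them), and their summed level was 334 to 1200 CPM in KO and 1043 to 2416 CPM in WT. Of 5 tuft cell markers Pou2f3, Sh2d6 and Dclk1 fell in crypts, and of these Dclk1 also fell without KO D to F. Of 8 immune markers 1 fell in crypts, Cd74 (-1.85 ± 0.57), which did not pass without KO D to F (-1.16, adjusted p = 0.0681), and their summed level was 364 to 2108 CPM in KO and 2001 to 5097 CPM in WT; its part in the values of the factors was not tested.

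The genes whose level was most like each factor were looked up among 8526 genes, by Pearson's r of log2 CPM over the 20 mouse libraries after the mean of each group was subtracted. This is a description: the libraries share preparation and depth, and the spread is largest in the 6 KO crypts. Hnf4g was most like Slc5a1, the glucose transporter of enterocytes (r = 0.95, and 0.92 over the 14 libraries without KO crypts), and Bche (r = 0.90 and 0.88). Cdx2 was most like Mff (0.96 and 0.88) and Akr7a5 (0.96 and 0.92), and Cdx1 like Supv3l1 (0.95 and 0.87). Gata4 was most like Slc27a4, a fatty acid transporter (0.96), a likeness that dropped to 0.66 without the KO crypts. Gata6 was most like Tmed7 (0.97 and 0.88), Klf4 like Micu2 (0.96 and 0.81) and Hnf4a like Kank1 (0.88 and 0.85). Klf5 was most like Rundc3b (0.91 and 0.81), and Sox9, with the weakest likeness, Arhgef28 (0.84 and 0.78). Without the KO crypts none of the genes named here remained the most like its factor. Their ranks then ran from 2 (Akr7a5) to 196 (Slc27a4), with Tmed7 at 17, Micu2 at 99 and Arhgef28 at 151.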

How the data were processed

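The values deposited by the authors are read counts per gene, not normalized, in a separate table for spheroids, crypts and Caco-2, per the file headers. STAR, DESeq2 and mm10 are named in the submitters' processing notes, without versions. The labels give mouse for Caco-2 too, but its table holds human identifiers, and the sources used here name no human build. The treatment of strand and of reads that map to several places is likewise not stated in these sources, so reads shared by close paralogs may be split between them. Second copies of an identifier (276 in each mouse table and 116 in Caco-2), whose counts were identical to the first, were dropped.

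Each table was fitted with edgeR 4.0.16 in R 4.3.3 (filterByExpr, TMM scaling, quasi-likelihood test with robust dispersions, Benjamini-Hochberg adjustment over all genes tested), and the SE was the log2 fold change divided by the square root of F. RPKM is CPM per kilobase of merged exons of GENCODE M21. Ratios of paralogs were tested by exact permutation, with a prior count of 0.5. The mouse libraries were also fitted jointly. The edgeR fit of each table was tested on simulated counts, with the same dispersion for every gene and no outlying library. The joint fit, the permutation test and the alternatives were not tested in this way. Spheroid and Caco-2 columns were matched to samples by their labels, and crypt columns to a genotype only. No replicate pair agreed within sampling noise (chi-square per degree of freedom of at least 3.98).

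The 9 factors and all lists were chosen with earlier results of these data known. The text names the 9 factors, the 3 genes of smallest p in a list, every gene of a list of 10 or fewer, and the 2 genes most like each factor. Genes named to spell out a small count of calls, or to set 1 gene beside its counterpart in another system, were chosen after their values were seen. Alternatives were RLE size factors, no filter, a filter of 1 CPM, DESeq2 1.42.0, limma 3.58.1 (voom with quality weights), the replicate number as a block, each library left out, a prior count of 2 for ratios and, chosen after seeing the data, leaving out 3 crypt KO libraries. Some genes that this rule or these counts would name are not reported here.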

Additional observations from a re-analysis of the deposited data

Results flagged for a closer look

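Of 36 groups of 4 to 10 libraries examined, 1 for each factor in each mouse group, 5 had a library farther from the rest than Dixon's 95% limit allows, and chance flags about 1 in 20. All 5 were in the KO crypts. Library A was high for Cdx1 (78.8 CPM), Cdx2 (63.6 CPM), Klf4 (91.7 CPM) and Klf5 (114 CPM), and library B for Hnf4a (617 CPM). Most of the 5 flags thus came from library A, so they are not independent, and the rate of 1 in 20 does not give the chance of 5 together. Library A also had the lowest Fgfr1op level of the 6, 11.5 CPM against 19.2 to 25.6 CPM. It stood at 65.8 on the second principal component, where the other crypt libraries of both genotypes lay between -46.1 and 35.2. A link between these traits was not tested.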

How the results depend on the processing

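The counts of factors called in spheroids (0 of 9) and Caco-2 (6 of 8) were within 1.5 times of those reported under every alternative run. The count of all genes called in spheroids, 37, was not: it was 154 without a filter on low counts, 577 in DESeq2, 71 with the replicate block and 3 to 160 with 1 library left out. With the replicate block 0 of 9 factors passed. No source used here states whether the numbers pair the samples. Deviations of same-numbered libraries correlated at -0.03 to 0.098 in spheroids, where 1 of 8 libraries correlated best with its own number. In Caco-2 they correlated at 0.003 to 0.044, where 4 of 6 did. These weak correlations do not settle the pairing. In crypts, voom with quality weights called 5 factors and 7179 genes, and the fit without KO D to F called 0 factors and 924 genes. The reported fit called 1 factor and 4014 genes. With 1 crypt library left out, 1 to 3 factors passed. For the difference between crypts and spheroids, voom called 2 factors, Hnf4g (-1.01) and Gata4 (-0.85). Of the paralog ratios, 0 to 1 passed with 1 library left out.

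Directions changed only for values that had not passed their test. Under voom, Cdx2 was at -0.19 and Klf5 at -0.055 in crypts, and at -0.088 and -0.045 for crypts minus spheroids. Without KO D to F, Hnf4a was at 0.067, Gata4 at 0.42, Gata6 at 0.10 and Klf4 at 0.32 in crypts. In the same setting crypts minus spheroids gave 0.49 for Gata4, 0.27 for Gata6, 0.53 for Klf4 and -0.078 for Sox9, and the log2 ratio of Gata4 to Gata6 differed by 0.27. Without the filter, Klf4 was at 0.015 for crypts minus spheroids. With 1 library left out, Cdx1 ran from -0.17 to 0.026 and Klf5 from -0.14 to 0.0069 in spheroids. In crypts Cdx2 ran from -0.18 to 0.24, Hnf4a from -0.12 to 0.042, Gata4 from -0.65 to 0.00015 and Klf5 from -0.10 to 0.14. For crypts minus spheroids the ranges were -0.099 to 0.37 (Cdx2), -0.61 to 0.077 (Gata4), -0.34 to 0.028 (Gata6), -0.58 to 0.14 (Klf4) and -0.13 to 0.18 (Klf5). Ratio differences ran from -0.28 to 0.016 for Hnf4a to Hnf4g in spheroids, from -0.32 to 0.0027 for Gata4 to Gata6 in crypts and from -0.095 to 0.16 for KLF4 to KLF5 in Caco-2. The cause was not tested. Of the other single values, 679 kept their direction and their side of the threshold. Depth limits what can be said of CDX1, HNF4G and KLF4 in Caco-2.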
